A study of Mus musculus with 8 samples.

Results

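Vegfa, Adm, Angptl4, Ndrg1, Ddit4, Ankrd37, P4ha1, P4ha2 and Car9 are 9 genes that the hypoxia-inducible factors (HIF) are known to switch on when oxygen falls, outside the glycolytic programme. Their chromatin was followed here through every ATAC-seq peak within 10 kb of their gene bodies. ATAC-seq marks open chromatin by where the Tn5 transposase can insert adapters. Peaks of 8 libraries were merged where they overlapped, and 16 of the 40784 merged regions lay in these 9 gene windows. The cells were BV2, a single immortalised mouse microglial line, grown alone (monoculture) or on top of GL261, a mouse glioma line (co-culture). Either culture then spent 16 h at 21% oxygen (normoxia) or at less than 0.1% (hypoxia), which makes 4 groups of 2 biological replicates. Per the labels, cells were fixed before they left the hypoxic chamber, and cells positive for CD45 or for GFP were then sorted. Which gate was used for which library is not given in the sources used here, and neither is the line that carried GFP.

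HIF is a pair of proteins whose alpha subunit is destroyed when oxygen is present and accumulates when it is scarce. The pair binds a short core motif, ACGTG or GCGTG, in promoters and enhancers. Vegfa, Adm and Angptl4 encode secreted proteins: the main growth factor for blood vessels, the vasodilator adrenomedullin, and an inhibitor of lipoprotein lipase. P4ha1 and P4ha2 encode catalytic subunits of the collagen prolyl 4-hydroxylase, and Car9 a cell-surface carbonic anhydrase that helps to control pH. Ndrg1 is a stress-induced cytoplasmic protein, Ddit4 (REDD1) restrains mTORC1 signalling, and Ankrd37 is a small ankyrin repeat protein. In macrophages and microglia this set is known as part of the common hypoxic response.

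The 8 peak lists differed in length and depth, and both moved with the groups. Monoculture normoxia had 13333 and 9910 peaks, while the other 6 lists held 21633 to 29658. Background coverage, estimated from the deposited fold and p-value of each peak, was 0.758 and 1.03 fragments in monoculture normoxia and 1.07 to 1.45 elsewhere. A region without a peak is therefore one that did not pass the caller's threshold at that depth, not one shown to be closed. A bulk library also cannot tell a region that is open in fewer cells from one that is less open in each cell. Of 12 microglia and macrophage marker genes, 7 and 8 had a peak in monoculture normoxia and 10 to 12 in every other library. Ptprc, which encodes CD45, had a peak in all 8. Of 15 glioma and glial markers, none had a peak in monoculture normoxia and 2 or 3 did in monoculture hypoxia. In co-culture the numbers were 7 and 3 in normoxia and 8 and 5 in hypoxia, the higher of each pair being replicate 1. All 3 regions at Nes, which encodes the neural progenitor filament nestin, had a peak in both replicate 1 co-culture libraries, 1 had a peak in co-culture hypoxia replicate 2, and none in monoculture. Olig2, Sox9, Egfr, Fabp7 and Ptprz1 had no region in any library. The part that GL261 chromatin played in the co-culture results below was not tested.

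Promoter sequences are shown for 6 members, because a region lay at the start of the first 4 genes and at none of the other two, although the HIF core motif was present in both kinds. Each is the 250 bases before the RefSeq start (GRCm38.p6), 5′ to 3′ on the strand of the gene, with ACGTG or GCGTG on either strand in capitals and overlapping matches joined into a single stretch.

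Vegfa, chr17:46032378-46032627, minus strand: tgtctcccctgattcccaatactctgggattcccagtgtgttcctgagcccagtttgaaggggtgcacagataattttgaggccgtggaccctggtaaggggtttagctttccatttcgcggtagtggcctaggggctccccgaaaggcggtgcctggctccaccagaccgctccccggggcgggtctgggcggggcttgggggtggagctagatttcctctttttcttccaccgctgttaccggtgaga

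P4ha1, chr10:59323046-59323295, plus strand: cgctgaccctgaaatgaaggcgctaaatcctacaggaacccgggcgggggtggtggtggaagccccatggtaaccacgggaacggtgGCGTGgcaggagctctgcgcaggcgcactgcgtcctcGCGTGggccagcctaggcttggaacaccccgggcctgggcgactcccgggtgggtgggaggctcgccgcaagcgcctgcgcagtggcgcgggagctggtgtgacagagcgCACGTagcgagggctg

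Ddit4, chr10:59951771-59952020, minus strand: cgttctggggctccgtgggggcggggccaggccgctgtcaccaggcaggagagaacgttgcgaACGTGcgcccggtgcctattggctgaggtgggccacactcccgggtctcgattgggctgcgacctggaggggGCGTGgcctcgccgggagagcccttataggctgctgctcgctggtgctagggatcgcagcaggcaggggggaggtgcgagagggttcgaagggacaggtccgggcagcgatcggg

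Ankrd37, chr8:45999851-46000100, minus strand: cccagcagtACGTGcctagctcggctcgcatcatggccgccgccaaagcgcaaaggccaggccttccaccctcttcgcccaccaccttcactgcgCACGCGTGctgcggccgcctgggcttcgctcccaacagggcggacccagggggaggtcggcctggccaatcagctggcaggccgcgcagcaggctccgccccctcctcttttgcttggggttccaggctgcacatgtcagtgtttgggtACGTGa

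Car9, chr4:43506776-43507025, plus strand: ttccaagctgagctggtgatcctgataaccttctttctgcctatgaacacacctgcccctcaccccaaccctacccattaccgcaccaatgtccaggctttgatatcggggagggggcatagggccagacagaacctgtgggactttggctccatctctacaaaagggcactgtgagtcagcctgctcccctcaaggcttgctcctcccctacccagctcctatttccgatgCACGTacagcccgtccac

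P4ha2, chr11:54100674-54100923, plus strand: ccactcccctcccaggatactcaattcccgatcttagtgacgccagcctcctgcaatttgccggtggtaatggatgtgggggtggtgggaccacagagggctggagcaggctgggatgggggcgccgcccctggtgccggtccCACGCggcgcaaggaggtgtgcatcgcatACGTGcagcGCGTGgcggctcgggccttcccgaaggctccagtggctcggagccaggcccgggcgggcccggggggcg

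The RefSeq table held 8 promoters for 7 of the 9 members, and Angptl4 and Ndrg1 did not match. For Ankrd37 and P4ha1 the annotated gene body begins before the start used here, at 46000414 and 59323197. The whole Ankrd37 sequence shown and part of that of P4ha1 therefore lie inside the gene body. Vegfa had 2 of the 8, of which the one shown lies at the gene's higher-coordinate end. The other, chr17:46025164-46025413, lies inside the gene, held 2 HIF core stretches and overlapped no region. Of these 8 promoters, 7 held the HIF core in their 250 bases. The same motif stood in 38.6% of all 32851 promoters and in 58.3% of the 11313 promoters that overlapped a region in at least 1 library. Ankrd37, P4ha1 and P4ha2 had 3 stretches each, which 4.56% of all promoters and 9.45% of those with a region reached or exceeded. Ddit4 and Adm had 2, and Car9 had 1, starting 18 bases before the gene. Median GC content was 63.6% in the member promoters, 52.4% in all promoters and 60.4% in those with a region. The Vegfa promoter shown held none in this window. The AP-1 motif TGANTCA was found only in the Car9 promoter and the ETS motif GGAAGT only in that of Adm among the members, against 6.75% and 19.7% of all promoters. A motif match here is a description of the letters and says nothing on binding.

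Across the 16 member regions, both hypoxic libraries had more peaks than both normoxic ones in monoculture, and every library of co-culture held more than either library of monoculture normoxia. Monoculture normoxia had a peak in 4 and 1 of the 16 regions (mean 2.5 ± 2.12, SD, n = 2), and monoculture hypoxia in 11 and 9 (10 ± 1.41, n = 2). For co-culture the numbers were 8 and 8 in normoxia, and 14 and 9 in hypoxia (11.5 ± 3.54, n = 2). The monoculture groups did not overlap, nor did the co-culture groups, where the gap was 1 region. Over all regions, the co-culture groups did overlap. Averaged over cultures, hypoxia exceeded normoxia by 5.5 regions, and averaged over oxygen, co-culture exceeded monoculture by 3.5, against a pooled SD between replicates of 2.18. Without co-culture hypoxia replicate 1 the culture difference was 2.25. In lists of equal number both differences were 1.25, and with a window of 2 kb they were 3 for oxygen and 2 for culture. The equal-number lists held 3 and 1 member regions in monoculture normoxia, 3 and 3 in monoculture hypoxia, 3 and 3 in co-culture normoxia, and 5 and 4 in co-culture hypoxia. There monoculture normoxia overlapped monoculture hypoxia and co-culture normoxia, and the co-culture groups did not overlap. The members were chosen with earlier results known, so these sums carry no test.

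**Figure D1:**
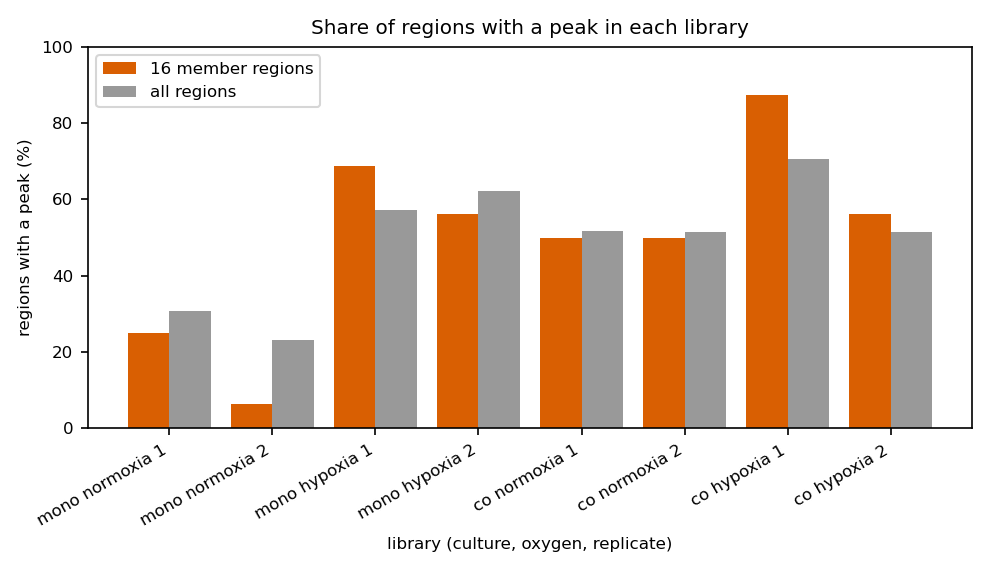
Share of regions with a peak (y axis, percent) in each of the 8 libraries (x axis) for the 16 member regions (orange) and all 40784 regions (grey). Member shares run from 6.25% in monoculture normoxia replicate 2 to 87.5% in co-culture hypoxia replicate 1, and the share of all regions is lowest and highest in the same libraries.

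Much the same order held genome-wide, except that the co-culture groups overlapped there. Of all regions, 21071 and 20995 had a peak in co-culture normoxia, and 28837 and 20990 in co-culture hypoxia. All regions had a peak in 30.8% and 23.1% of cases in monoculture normoxia, against 25% and 6.25% of member regions. The shares were 57.3% and 62.3% of all regions in monoculture hypoxia (members 68.8% and 56.3%), and 51.7% and 51.5% in co-culture normoxia (members 50% and 50%). In co-culture hypoxia they were 70.7% and 51.5% (members 87.5% and 56.3%). The members lay below the genome-wide share in both libraries of monoculture normoxia and above it in both of co-culture hypoxia. Each member region counts for 6.25%, however. The gaps between 25% and 30.8% in monoculture normoxia and between 56.3% and 51.5% in co-culture hypoxia were smaller than that. These gaps do not set the members apart from all regions, and the difference was not tested.

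A region was called gained where both libraries of a group and neither of the comparison group had a peak, and lost in the reverse case. With hypoxia in monoculture 5 of 16 member regions were gained, at Vegfa, P4ha1, P4ha2, Ndrg1 and Ddit4, against 17.7% of all regions, and none was lost, against 0.179%. With hypoxia in co-culture 2 were gained, near Angptl4 and Ddit4, against 6.09%, and 1 was lost, near Ankrd37, against 2.05%. Co-culture in normoxia gained 2 regions, the starts of P4ha1 and Ddit4, against 12.5%, and lost none, against 0.181%. Co-culture in hypoxia gained 3, near Angptl4, Car9 and Ddit4, against 5.83%, and lost the 1 near Ankrd37, against 3.76%. No member region separated all 4 hypoxic from all 4 normoxic libraries (background 2.08% gained and 0.0196% lost), or all 4 co-culture from all 4 monoculture libraries (1.98% and 0.027%). With 2 libraries a group, the counts were small, and the share for co-culture in normoxia (12.5% of members) equalled the background. In lists cut to the 9910 peaks with the highest −log10 p, hypoxia gained 0 member regions in monoculture (background 3.59%) and 1 in co-culture (2.64%). Co-culture gained 1 in normoxia (2.37%), the start of Ddit4, and 2 in hypoxia (3.58%), the starts of P4ha1 and Ddit4. The 3 regions gained with co-culture in hypoxia as deposited were in no list of equal number, so those calls all ended. All 4 hypoxic libraries gained 0 (0.52%) and all 4 co-culture libraries 1 (0.493%), the start of Ddit4. None was lost in these lists, against 2.49%, 2.78%, 1.43%, 3.4%, 0.436% and 0.243% in the same order. After scaling all lists to the lowest estimated background coverage, 62 of the 64 member peaks still passed and 5 were again gained with hypoxia in monoculture (background 16.5%). Leaving out a single library moved some counts by over 1.5 times. Without monoculture normoxia replicate 1, gains were 8 with hypoxia in monoculture and 5 with co-culture in normoxia, and the latter were 4 without either replicate of co-culture normoxia. Without co-culture hypoxia replicate 2, gains were 5 with hypoxia in co-culture and 5 with co-culture in hypoxia. Losses with co-culture in hypoxia were 3 without co-culture hypoxia replicate 1 and 2 without monoculture hypoxia replicate 2. Gains in all 4 hypoxic and in all 4 co-culture libraries were 1 each without co-culture normoxia replicate 1.

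**Figure D2:**
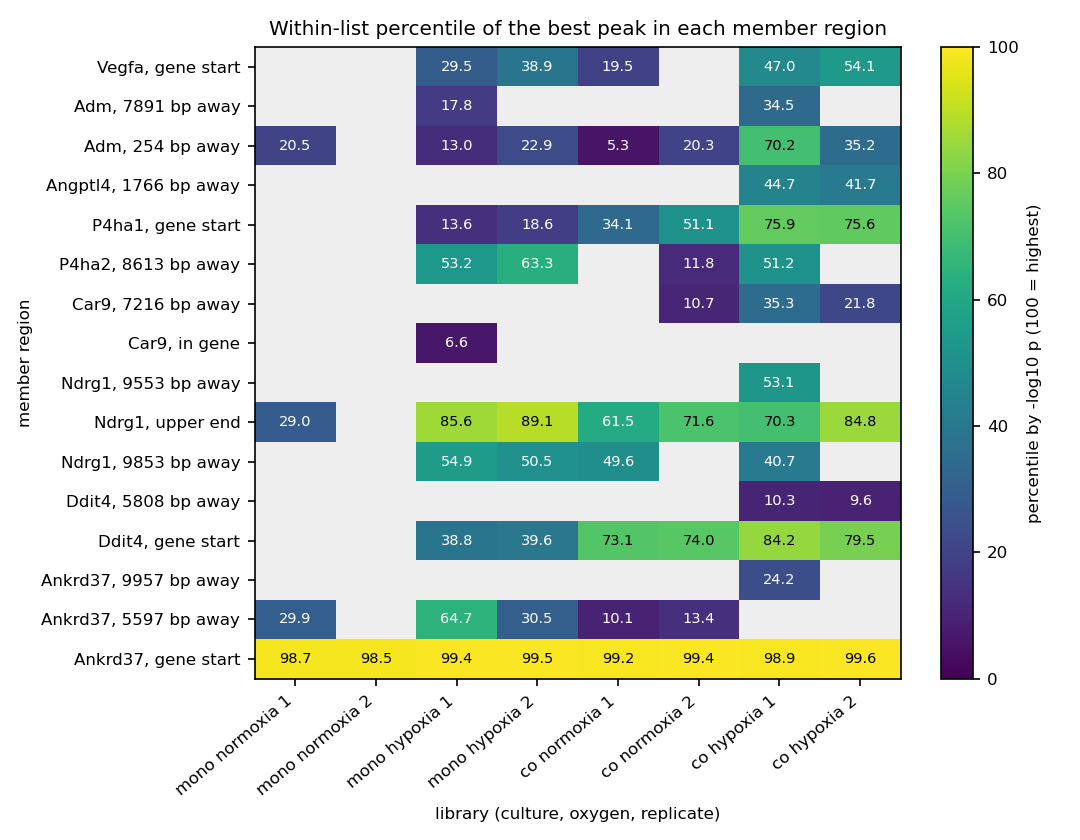
Rank of the best peak of each member region (rows) in each library (columns) by deposited −log10 p, as a percentile of that library's own list from 0 to 100, with grey where the library had no peak. The row of the Ankrd37 start is above 98 in all 8 libraries, while the rows of Vegfa, P4ha1 and Ddit4 starts are empty in both libraries of monoculture normoxia.

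Among the secreted factors, Vegfa had a single region, chr17:46031899-46032864, which spans the start of the gene (46032377, minus strand). It had a peak in both libraries of monoculture hypoxia, at percentiles 29.5 and 38.9, and in both of co-culture hypoxia, at 47.0 and 54.1. Of the 4 normoxic libraries, only co-culture normoxia replicate 1 had a peak there, at percentile 19.5. A percentile is the rank within a library's own list, 100 being the highest, and ranks from lists of different length cannot show a change. The estimated number of fragments at the summit was 23 and 26 in monoculture hypoxia, 36 and 35 in co-culture hypoxia, and 17 in the normoxic library. Local background was 2.69 to 5.42 fragments. Over its general background, a summit needed 6 or 7 fragments to pass in the 3 libraries without a peak, and more where the local background was higher. All 5 summits fell within 60 bases upstream of the gene start, and peaks were 504 to 915 bp wide. Without co-culture normoxia replicate 1, Vegfa separated all hypoxic from all normoxic libraries, but leaving out a library loosens the rule. Why that library had the peak was not tested. Of all regions, 551 (1.35%) had a peak in exactly the same 5 libraries as Vegfa. The region was in none of the lists cut to equal number.

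Adm, for adrenomedullin, had no peak at its start, and 2 regions nearby. The one at chr7:110630074-110631689 lay 254 bp past the gene's far end and overlapped the non-coding gene Gm28863. It had a peak in every library except monoculture normoxia replicate 2. Its percentile was 20.5 in the other library of that group, 13.0 and 22.9 in monoculture hypoxia, 5.26 and 20.3 in co-culture normoxia, and 70.2 and 35.2 in co-culture hypoxia. The summit of its best peak lay 2733 to 3218 bp downstream of the gene start. The other region, chr7:110619394-110619766, 7891 bp before the gene, had a peak only in the replicate 1 libraries of monoculture hypoxia (17.8) and co-culture hypoxia (34.5).

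Angptl4, which is also induced by fatty acids through PPAR receptors, had a single region, chr17:33783341-33784027, 1766 bp above the higher-coordinate end of the gene. It had a peak in both libraries of co-culture hypoxia, at percentiles 44.7 and 41.7 with 32 and 25 estimated fragments, and in none of the other 6. The deposited lists therefore separated co-culture hypoxia from both single conditions, but no library had this region in the lists of equal number, where both calls ended. Of all regions, 807 (1.98%) had a peak in exactly these 2 libraries.

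Of the 2 collagen hydroxylase genes, P4ha1 had a region across its start, chr10:59322925-59323734, with a peak in all 6 libraries outside monoculture normoxia and in neither of that group. Its percentile was 13.6 and 18.6 in monoculture hypoxia, 34.1 and 51.1 in co-culture normoxia, and 75.9 and 75.6 in co-culture hypoxia. Estimated summit fragments in the same order of groups were 16 and 18, 19 and 27, and 55 and 50, at the depth of each library. In lists of equal number only both libraries of co-culture hypoxia had this peak. Its gains with hypoxia in monoculture and with co-culture in normoxia ended there. It was gained with hypoxia in co-culture and with co-culture in hypoxia instead. Summits lay 66 to 109 bases before the RefSeq start at 59323296, between the HIF core stretches that begin 126 and 16 bases before it. The annotated gene body begins earlier, at 59323197, within the span of these summits (59323187 to 59323230). P4ha2 had no region at its start, where 3 HIF core stretches lie. Its only region, chr11:54091668-54092311, lay 8613 bp before the gene and had a peak in both libraries of monoculture hypoxia (53.2 and 63.3), in 1 of co-culture normoxia (11.8) and in 1 of co-culture hypoxia (51.2). The replicates of both co-culture groups disagreed there.

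Car9 is often used as a marker of hypoxic tumour cells. No library had a peak at its start, although the HIF core lies 18 bases before it. A weak region inside the gene, chr4:43508750-43509092, had a peak only in monoculture hypoxia replicate 1 (percentile 6.55, 10 estimated fragments) and did not pass after scaling for depth. The other, chr4:43499272-43499810, lay 7216 bp before the gene and inside the neighbouring gene Arhgef39. It had a peak in both libraries of co-culture hypoxia (35.3 and 21.8) and in co-culture normoxia replicate 2 (10.7, which did not pass after scaling), and in none of monoculture. No library had this region in the lists of equal number, where its gain with co-culture in hypoxia ended.

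Of the stress genes, Ndrg1 had its main region at the higher-coordinate end of the gene, chr15:66969407-66970273, where the non-coding gene Gm2895 also lies. It had a peak in 7 libraries, all but monoculture normoxia replicate 2. The percentile was 29.0 in the other library of monoculture normoxia, 85.6 and 89.1 in monoculture hypoxia, 61.5 and 71.6 in co-culture normoxia, and 70.3 and 84.8 in co-culture hypoxia. All 7 peaks were also in the lists cut to equal number. A second region, chr15:66979494-66980917, 9853 bp beyond that end and also in Gm2895, had a peak in both libraries of monoculture hypoxia (54.9 and 50.5) and in both replicate 1 co-culture libraries (49.6 in normoxia, 40.7 in hypoxia). The third, chr15:66919357-66919765, overlapped Ccn4 and had a peak only in co-culture hypoxia replicate 1 (53.1).

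Ddit4 had a region at its start, chr10:59951581-59952384, with the same 6 libraries as P4ha1. Its percentile was 38.8 and 39.6 in monoculture hypoxia, 73.1 and 74.0 in co-culture normoxia, and 84.2 and 79.5 in co-culture hypoxia. Summit fragments in the same order of groups were 30 and 31, 42 and 46, and 96 and 76. Summits lay 125 to 202 bases before the start, a span that holds an HIF core stretch beginning at base 187. In lists of equal number it had a peak in each of the 4 co-culture libraries and in none of monoculture, which 0.493% of all regions did. The set of libraries it shared with P4ha1 was common, at 2026 regions (4.97%). A fainter region, chr10:59943117-59943867, 5808 bp past the far end, had a peak only in the 2 libraries of co-culture hypoxia (10.3 and 9.63). It was in no list of equal number.

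**Figure D3:**
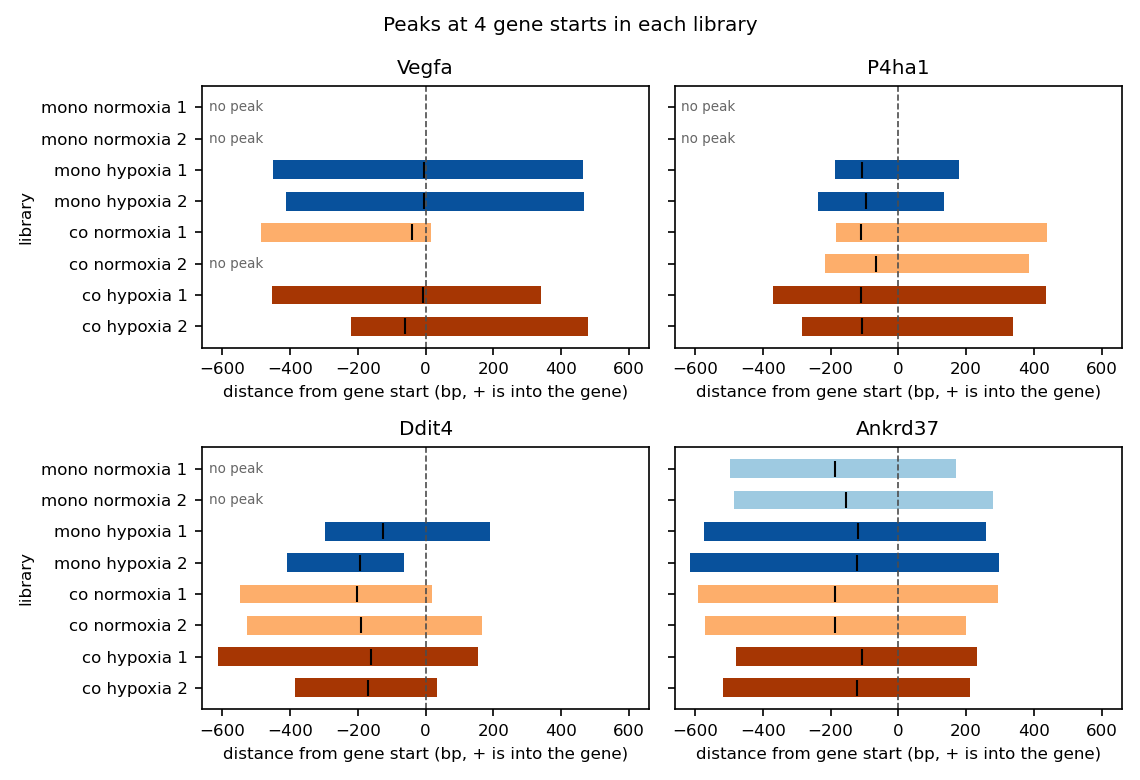
Extent of the peak at the starts of Vegfa, P4ha1, Ddit4 and Ankrd37 in each library (rows), as distance in bp from the RefSeq start (x axis, positive into the gene), with a black tick at the summit and colours for the 4 groups. Summits keep their place across libraries, from 4 to 60 bases before the start at Vegfa and from 125 to 202 at Ddit4, and the missing peaks are those of monoculture normoxia and, at Vegfa, also co-culture normoxia replicate 2.

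At Ankrd37 every library had a peak at the start. The region there, chr8:45999552-46000465, had percentiles from 98.5 to 99.6, and so its peak was among the top few percent of every list. Estimated summit fragments were 90 and 84 in monoculture normoxia, 213 and 252 in monoculture hypoxia, 153 and 216 in co-culture normoxia, and 235 and 272 in co-culture hypoxia. Like all fragment numbers here, these depend on the depth of each library. This pattern was shared by 6375 regions (15.6%). Beyond the gene's far end, a region inside Ufsp2, chr8:45990531-45991311, had a peak in both libraries of monoculture hypoxia (64.7 and 30.5), both of co-culture normoxia (10.1 and 13.4) and 1 of monoculture normoxia (29.9), and in neither of co-culture hypoxia. It was the only member region called lost in any contrast. The third, chr8:45986223-45986951, also in Ufsp2, had a peak only in co-culture hypoxia replicate 1 (24.2).

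**Figure D4:**
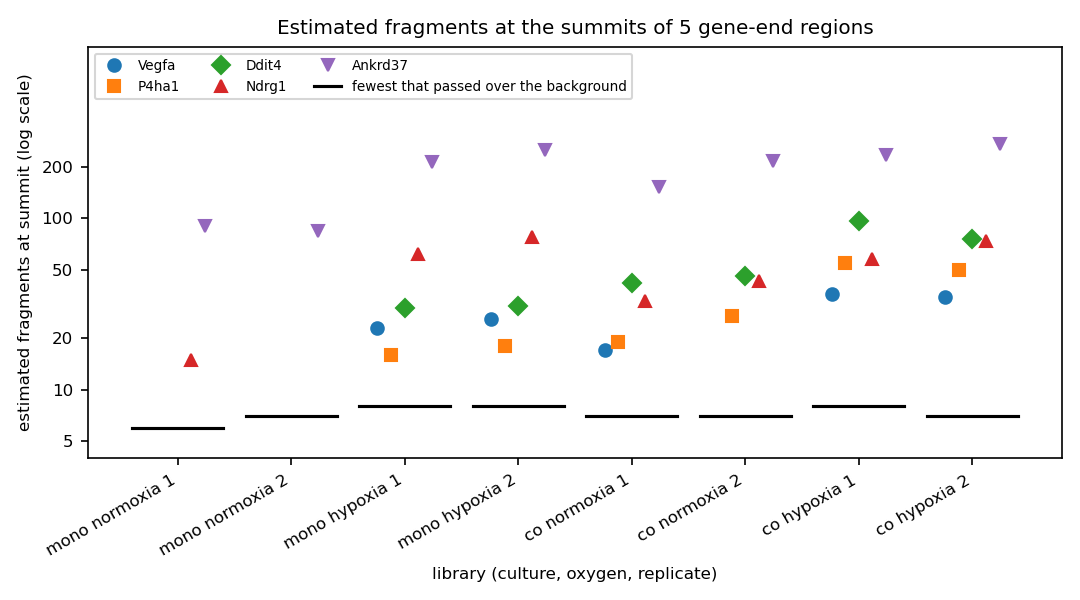
Estimated fragments at the summit (y axis, log scale) of the regions at the starts of Vegfa, P4ha1, Ddit4 and Ankrd37 and at the upper end of Ndrg1 in each library (x axis), with a black line at the fewest fragments that passed over that library's general background (6 to 8). Points are absent where there was no peak. The called summits of Vegfa hold 17 to 36 fragments and those of Ankrd37 84 to 272.

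The number of regions with a peak per gene was tested for all 15213 protein-coding genes that had a region, with a two-sided exact permutation test within the other factor. The test has 36 relabellings and a smallest p of 0.0556, so no gene could pass 0.05. Ddit4 had 1 more region with a peak in hypoxia than in normoxia on average, and 1 more in co-culture than in monoculture (exact permutation p = 0.0556 for both; Benjamini-Hochberg adjusted over all genes, 0.811 and 0.913). In lists of equal number the oxygen difference of Ddit4 was 0 (exact permutation p = 1) and its culture difference stayed at 1 (exact permutation p = 0.0556). With a window of 2 kb both were 0.5 (exact permutation p = 0.333), and the oxygen difference was 0.5 (exact permutation p = 0.5) when peaks had to cover 50% of a region. Its counts as deposited were 0 in both libraries of monoculture normoxia, 1 in the 4 libraries with a single factor and 2 in both of co-culture hypoxia. Vegfa had an oxygen difference of 0.75 regions (exact permutation p = 0.167, adjusted 0.811), and of 0 in lists of equal number. Ndrg1 had a difference of 1 (exact p = 0.278, adjusted 0.936), which was 0.5 without co-culture normoxia replicate 1 or without co-culture hypoxia replicate 1, and 0.25 in lists of equal number. Adm had a difference of 0.75 (exact p = 0.333, adjusted 0.936), and of 0.25 in lists of equal number. For the other members the oxygen difference was 0.5, except 0 at Ankrd37, with exact permutation p-values from 0.333 to 1. In lists of equal number it was 0 for Angptl4 and Car9, 0.25 for P4ha2 and 0.5 for P4ha1, which was at 0 when peaks had to cover 50% of a region. For P4ha2 it was 0.25 without replicate 1 of either co-culture group, and for Car9 0.25 without replicate 1 of monoculture hypoxia or of co-culture normoxia. Ankrd37 moved between -0.25 and 0.25 as single libraries were left out. The oxygen difference was above 0 for 8 of 9 members, and for 70.2% of all genes tested. The medians were 0.5 and 0.25 regions. The culture difference was above 0 for 7 of 9 members and 66.5% of all genes, with medians of 0.5 and 0.25. In lists of equal number the oxygen difference was above 0 for 4 of 9 members and below 0 for none, against 30.4% and 28.8% of all genes. The culture difference there was above 0 for 4 members and below 0 for 2, against 39.0% and 21.2% of all genes, and the members' median was 0 for both factors. Whether the oxygen difference of a member itself differed between cultures was not tested.

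Lists of related genes give the setting. Pathway partners of the members (receptors, paralogs, other collagen-modifying enzymes, mTORC1 components and pH regulators) numbered 40, of which 35 had a region. Hypoxia gained a region at 14 of the 35 (40.0%) in monoculture and at 8 (22.9%) in co-culture, beside 33.1% and 13.7% of all genes with a region and 5 and 2 of the 9 members. Of 39 other HIF targets, 38 had a region, and hypoxia gained one at 18 (47.4%) and 8 (21.1%). Of the 12 microglia and macrophage markers, it gained one at 8 (66.7%) and 1 (8.33%). A gene with more regions has more that can be called. The 35 partners held 125 regions, the 38 targets 121, the 12 markers 43 and the 9 members 16, and the median over all genes was 2. The median oxygen difference was 0.5 regions for the partners and 0.75 for the other HIF targets. Regions gained in all 4 hypoxic libraries stood near 2 partners, Ndrg2, a paralog of Ndrg1 (percentiles 42.1 to 68.3), and Col4a1, a basement membrane collagen (7.81 to 18.0). They also stood near 3 HIF targets, Slc2a1, Pfkp and Cxcr4, and 4.48% of all genes had such a region. In all 4 co-culture libraries, a region was gained near P4hb, the partner subunit of both collagen hydroxylases (8.23 to 25.9), and near Pfkp, Aldoa and Hmox1, as at 5.09% of all genes. None of the partners or other targets had a region lost in these comparisons of 4 libraries with 4. Counts over the 8 libraries had a Pearson r of 1 with those of Vegfa in 89 of 13288 other genes. By name, 1810055G02Rik, 2200002J24Rik and 2610507B11Rik came first among these ties.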

How the data were processed

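ATAC-seq peak lists of 8 BV2 libraries were used, 1 per library. Per the submitters' processing notes, the authors used Trimmomatic 0.36, HISAT2 2.1.0, Picard, SAMtools, deepTools and MACS2 2.1.1.2 on mm10. The order, the settings and any shift for Tn5 are not given in the sources used here. In the deposited lists, column 7 is a fold enrichment, a ratio of the summit to the local background, and columns 8 and 9 are −log10 p and −log10 q. These values are the authors' and belong to each list, so they were used to rank and describe peaks within it. The lowest deposited −log10 q was just above 2 in each list.

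Overlapping peaks were merged into regions, and a library had a region where 1 bp of a peak lay in it. Gene bodies were RefSeq GRCm38.p6, the same build as mm10, and all 9 members matched by symbol. The table gives no strand, so starts were taken from the RefSeq promoter table. Every region of all 9 members is described, and genes of the other lists are named where a region separated 4 libraries from 4. The members and lists were chosen with earlier results of these data known. Fragments n and background b at a summit were solved from fold = (n + 1)/(b + 1) and the Poisson p, which gave back the deposited −log10 p within 0.001 for at least 99.8% of peaks per library. Peaks with −log10 p over 250 were not solved. The commonest b was taken as coverage. Labels say biological replicates, without saying whether cultures were grown separately, so p-values measure only the spread between these samples. Regions per gene were compared by exact permutation within the other factor, with Benjamini-Hochberg adjustment over all genes. Alternatives were other windows, overlap rules, thresholds and list lengths, single libraries left out, and a replicate block. The scripts were tested on simulated data. Python 3.11.15, numpy 2.4.6, pandas 2.3.3, scipy 1.17.1 and matplotlib 3.10.9 were used.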

Additional observations from a re-analysis of the deposited data

How the results depend on the processing

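Each absence holds only at the depth of its library, and the lists of monoculture normoxia were the shortest. Scaling all lists to the lowest estimated background coverage left peaks in 30.8% and 22.5% of all regions for that group. For monoculture hypoxia the scaled shares were 54.2% and 59.3%, so the gap remained. What made the lists short was not tested. The equal-number lists left 7 of the 16 regions and moved the oxygen and culture differences in member regions to 1.25 each. Gains then numbered 0 with hypoxia in monoculture, 1 with hypoxia in co-culture, 1 with co-culture in normoxia and 1 in all 4 co-culture libraries. Losses with hypoxia in co-culture and with co-culture in hypoxia were 0. When peaks had to cover 50% of a region, gains were 1 in all 4 co-culture libraries and 1 with hypoxia in co-culture, and losses with hypoxia in co-culture were 0. A window of 2 kb left 8 regions. The oxygen difference was then 3 and the culture difference 2, gains were 3 with hypoxia in monoculture, 1 with hypoxia in co-culture and 1 with co-culture in hypoxia, both losses were 0, and the culture difference of Car9 turned from 0.5 to -0.25. A window of 50 kb held 47 regions, with differences of 17.75 for oxygen and 8.75 for culture. Gains were 15 and 9 with hypoxia in monoculture and co-culture, 6 and 6 with co-culture in normoxia and hypoxia, and 3 in all 4 hypoxic libraries.

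Leaving out 1 library loosens the rule, so counts can grow by construction. Gains with hypoxia ran from 4 to 8 in monoculture (8 without monoculture normoxia replicate 1) and from 2 to 5 in co-culture (5 once co-culture hypoxia replicate 2 was left out). Gains with co-culture ran from 2 to 5 in normoxia (5 without monoculture normoxia replicate 1, 4 without either replicate of co-culture normoxia) and from 3 to 5 in hypoxia (5 without co-culture hypoxia replicate 2), and losses with co-culture in hypoxia from 1 to 3 (3 without co-culture hypoxia replicate 1, 2 without monoculture hypoxia replicate 2). Gains in all 4 hypoxic and in all 4 co-culture libraries ran from 0 to 1, both 1 without co-culture normoxia replicate 1. Without both replicate 1 co-culture libraries, an alternative chosen after seeing the data, these gains were 1 and 1, gains with co-culture in normoxia 4, and losses with hypoxia in co-culture and with co-culture in hypoxia 2 and 2. The cause of these shifts was not tested. Lists scaled to the lowest background coverage, also added after seeing the data, moved no count by over 1.5 times. A replicate block (sign flips of same-numbered libraries, 16 arrangements) is given although the libraries share only a number, with correlations of deviations from -0.0202 to 0.0396. Its exact permutation p was 0.125 for Ddit4, the smallest it can give, and 0.25 for Vegfa. No gene could pass 0.05 with or without the block, so it says nothing on stability.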

Other observations

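Just outside the 10 kb windows lay 2 regions that separated all 4 hypoxic from all 4 normoxic libraries, as 2.08% of all regions did. They were found with the window of 50 kb and are named after their values were seen. The region 12290 bp past the far end of Vegfa, chr17:46004026-46004703, had percentiles of 16.3 and 31.5 in monoculture hypoxia and 23.9 and 75.2 in co-culture hypoxia. The nearest other annotated gene was 55194 bp away. The region 12359 bp before P4ha1, chr10:59310246-59310838, had percentiles of 47.5 and 45.7 in monoculture hypoxia and 20.5 in co-culture hypoxia replicate 1, while replicate 2 ranked it near the bottom of its list. Another region, 40310 bp before Car9, chr4:43466094-43466716, lay nearer to Cd72 and ranked from 15.2 to 30.8. The member regions closest inside the limit were those of Ndrg1 at 9553 and 9853 bp and of Ankrd37 at 9957 bp.

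Both co-culture normoxia libraries (21790 and 21826 peaks) and co-culture hypoxia replicate 2 (21633 peaks) had lists of nearly equal length. They were set side by side after the values were seen, with a single hypoxic library. The Vegfa start had a percentile of 19.5 in normoxia replicate 1, no peak in normoxia replicate 2 and 54.1 in hypoxia, and the Angptl4 region had a peak only in hypoxia (41.7). In the same order, percentiles at the P4ha1 start were 34.1, 51.1 and 75.6, at the Ndrg1 upper end 61.5, 71.6 and 84.8, and at the Ddit4 start 73.1, 74.0 and 79.5. Others had a peak in normoxia and none in hypoxia: the Ankrd37 region in Ufsp2 (10.1 and 13.4), the second Ndrg1 region (49.6 in replicate 1 only) and the P4ha2 region (11.8 in replicate 2 only). Member regions with a peak numbered 8, 8 and 9.

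Ptprc, the gene of the sort marker CD45, had 2 of its 5 regions gained in all 4 hypoxic libraries, with percentiles of 26.3 to 66.3 and 65.8 to 78.5. Such a gain was seen at 2.08% of all regions and 4.48% of all genes, and Ptprc was the only one of the 12 microglia and macrophage markers with it, named after its values were seen. It had 2 regions with a peak in each library of monoculture normoxia, 5 in each of monoculture hypoxia, 3 in each of co-culture normoxia, and 5 and 4 in co-culture hypoxia.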
